A study of Mus musculus with 2 samples.

Results

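The interleukin-1 family and its antagonists were followed here as 8 genes, Il1a, Il1b, Il1rn, Il1r2, Il1rap, Il18, Il18bp and Il33, taken by symbol from the 31053 features of the deposited count matrices. Every one of the 8 matched exactly 1 feature. The cells came from tumours of mice carrying AB1-HA, a mouse mesothelioma line, and were sorted live by staining for CD45, the leukocyte surface phosphatase encoded by Ptprc. The mice behind 1 library had received a control antibody and those behind the other an antibody against VEGF, the vascular growth factor, and both libraries used the 10x Genomics 3' chemistry. All cells of both groups therefore came from AB1-HA tumours, and the strain, sex and age of the mice, the antibody clones and doses, and the number of mice per library are not given in the sources used here. With 1 library per group there is no replicate and no test, and each difference describes these 2 libraries.

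Interleukin-1 alpha and beta are cytokines that act on the same receptor, which signals only together with the accessory chain encoded by Il1rap. Il1b needs to be cut from a precursor, usually by caspase-1 in an inflammasome, whereas the precursor of Il1a is active as made. Both ligands have natural brakes: Il1rn encodes a receptor antagonist that occupies the receptor without signalling, and Il1r2 encodes a decoy receptor that binds the ligands without signalling. Il18 is a related cytokine that stimulates T cells and NK cells and is held back by the soluble binding protein encoded by Il18bp. Il33 encodes a nuclear alarmin of stromal and epithelial cells that is released on damage and acts through ST2, encoded by Il1rl1, with Il1rap again as the second chain.

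The 8 genes are protein coding. On GRCm38 with GENCODE M21, Il1a lies at chr2:129299610-129309972 and Il1b at chr2:129364570-129371139, both on the minus strand, and Il1rn at chr2:24336853-24351494 on the plus strand. Il1r2 lies at chr1:40074079-40125231, Il1rap at chr16:26581704-26730117, Il18 at chr9:50554827-50581840 and Il33 at chr19:29925114-29960718, all on the plus strand, and Il18bp at chr7:102014885-102018690 on the minus strand. The 250 bases before the RefSeq transcription starts of Il1a, Il1b, Il1r2 and Il33 are printed, because these 4 genes carry most of the differences described below. That build, also called mm10, is the one of the files. The sequences are from RefSeq on GRCm38.p6, and each runs 5' to 3' on the strand of the gene. Capitals mark any match, on either strand, to 1 of 6 motifs. These are the NF-kB motif, the C/EBP motif written TTGCNNAA, the AP-1 motif written TGANTCA, the core of the hypoxia response element written ACGTG, the PU.1 motif written GAGGAA and the box named after its letters TATAAA. The windows are Il1a at chr2:129309973-129310222 on the minus strand, Il1b at chr2:129371140-129371389 on the minus strand, Il1r2 at chr1:40085843-40086092 on the plus strand, and 2 starts of Il33 at chr19:29924863-29925112 and chr19:29945540-29945789 on the plus strand. The windows of Il1r2 and of the second Il33 start lie inside the annotated genes, and the others lie just upstream of them.
Il1a: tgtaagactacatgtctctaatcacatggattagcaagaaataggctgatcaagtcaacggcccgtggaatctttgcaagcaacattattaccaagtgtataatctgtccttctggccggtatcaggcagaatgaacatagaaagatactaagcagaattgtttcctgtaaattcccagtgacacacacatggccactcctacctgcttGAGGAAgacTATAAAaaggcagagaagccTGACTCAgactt
Il1b: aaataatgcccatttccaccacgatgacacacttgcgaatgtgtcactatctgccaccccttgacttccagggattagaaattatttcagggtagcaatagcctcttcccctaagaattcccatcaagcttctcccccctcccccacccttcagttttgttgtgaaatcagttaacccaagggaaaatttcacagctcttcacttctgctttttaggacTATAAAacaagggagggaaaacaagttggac
Il1r2: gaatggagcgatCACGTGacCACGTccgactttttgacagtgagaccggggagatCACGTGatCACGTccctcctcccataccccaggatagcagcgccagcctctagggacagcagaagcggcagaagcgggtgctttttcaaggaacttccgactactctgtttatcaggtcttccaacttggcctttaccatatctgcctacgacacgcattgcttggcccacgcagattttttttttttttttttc
Il33 first start: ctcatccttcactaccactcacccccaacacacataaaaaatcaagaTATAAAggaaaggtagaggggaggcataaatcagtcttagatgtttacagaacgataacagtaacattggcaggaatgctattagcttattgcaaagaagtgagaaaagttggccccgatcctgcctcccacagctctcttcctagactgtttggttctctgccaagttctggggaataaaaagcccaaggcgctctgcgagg
Il33 second start: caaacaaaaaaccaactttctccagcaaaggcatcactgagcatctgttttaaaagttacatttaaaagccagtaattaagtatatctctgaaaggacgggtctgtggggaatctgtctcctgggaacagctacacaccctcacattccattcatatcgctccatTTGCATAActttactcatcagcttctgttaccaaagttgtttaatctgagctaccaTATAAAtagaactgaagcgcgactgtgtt

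The TATAAA box lay 32 to 27 bases before the start of Il1a, 31 to 26 before that of Il1b and 29 to 24 before the second start of Il33, while at the first start of Il33 it lay 203 to 198 bases before. Of the 32851 RefSeq promoter windows of this length, 12.4% hold that motif. Il1a also held TGACTCA, a form of TGANTCA (6.75% of windows), and GAGGAA (23.3% of windows). In Il1r2 the hypoxia core was found in 4 clusters between 238 and 183 bases before the start. Of these, 2 read CACGTG, which matches ACGTG on both strands. ACGTG is in 16.6% of all windows and was in neither Il33 window nor in those of Il1a and Il1b. The second Il33 window held TTGCATAA, a form of TTGCNNAA (9.56% of windows), and none of the 5 printed windows held the NF-kB motif, which is in 1.21% of windows. A match of letters is a description and not a binding site, and a window without one says nothing about the factor.

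Cells were gated by marker genes other than the 8 members, and the libraries are compared in the 6 classes with at least 40 cells in each. These were neutrophils (48 cells in the control library and 227 in the anti-VEGF library, 0.444% and 2.78% of cells), T cells (47 and 47), collagen-expressing cells (360 and 550), osteoclast-like cells (1498 and 894), monocytes (187 and 271) and macrophages (6273 and 4383). The collagen-expressing cells lacked the sorted marker for the most part: Ptprc was detected in 3.33% and 6.18% of them, against 75.2% and 88.1% of macrophages. Depth was uneven, with a median of 2388.5 and 2195 UMIs, the molecular tags that count captured transcripts once each, in neutrophils and 18975 and 22440 in macrophages. All 9 macrophage markers were detected in at least 50% of the monocytes too. The 2 libraries shared 35 barcode sequences, which were kept apart by library. Levels are given as CPM (counts per 1000000 UMIs), the UMIs of a gene over all UMIs of its class, with no division by gene length since each UMI marks a transcript end. Ratios are anti-VEGF over control, and all intervals are exact 95% intervals that cover counting error only.

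Il1b was the most abundant member in neutrophils, monocytes, macrophages and osteoclast-like cells in both libraries. Its order by CPM over the compared classes other than T cells was the same in both. That order was neutrophils, then monocytes, macrophages, osteoclast-like cells and collagen-expressing cells. In neutrophils it stood at 14384 CPM in the control library and 13457 in the anti-VEGF library, and 97.9% and 98.2% of cells held at least 1 Il1b UMI. Monocytes had 1682 and 2085 CPM, and macrophages 395 and 347 CPM. The neighbours in this order were apart by far more than their counting intervals, with macrophages at 391 to 398 and 343 to 350 CPM. Counted per cell, the deeper monocytes held more Il1b UMIs than neutrophils, a mean of 42.6 and 45.7 against 33.4 and 35.7. In T cells, at median depths of 6014 and 8282 UMIs, there were 1 and 5 UMIs. After each cell was thinned to 2000 UMIs, Il1b was detected in 18.6% and 16.4% of macrophages, 66.7% and 72.1% of monocytes, and 0% and 4.35% of T cells.

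**Figure D1:**
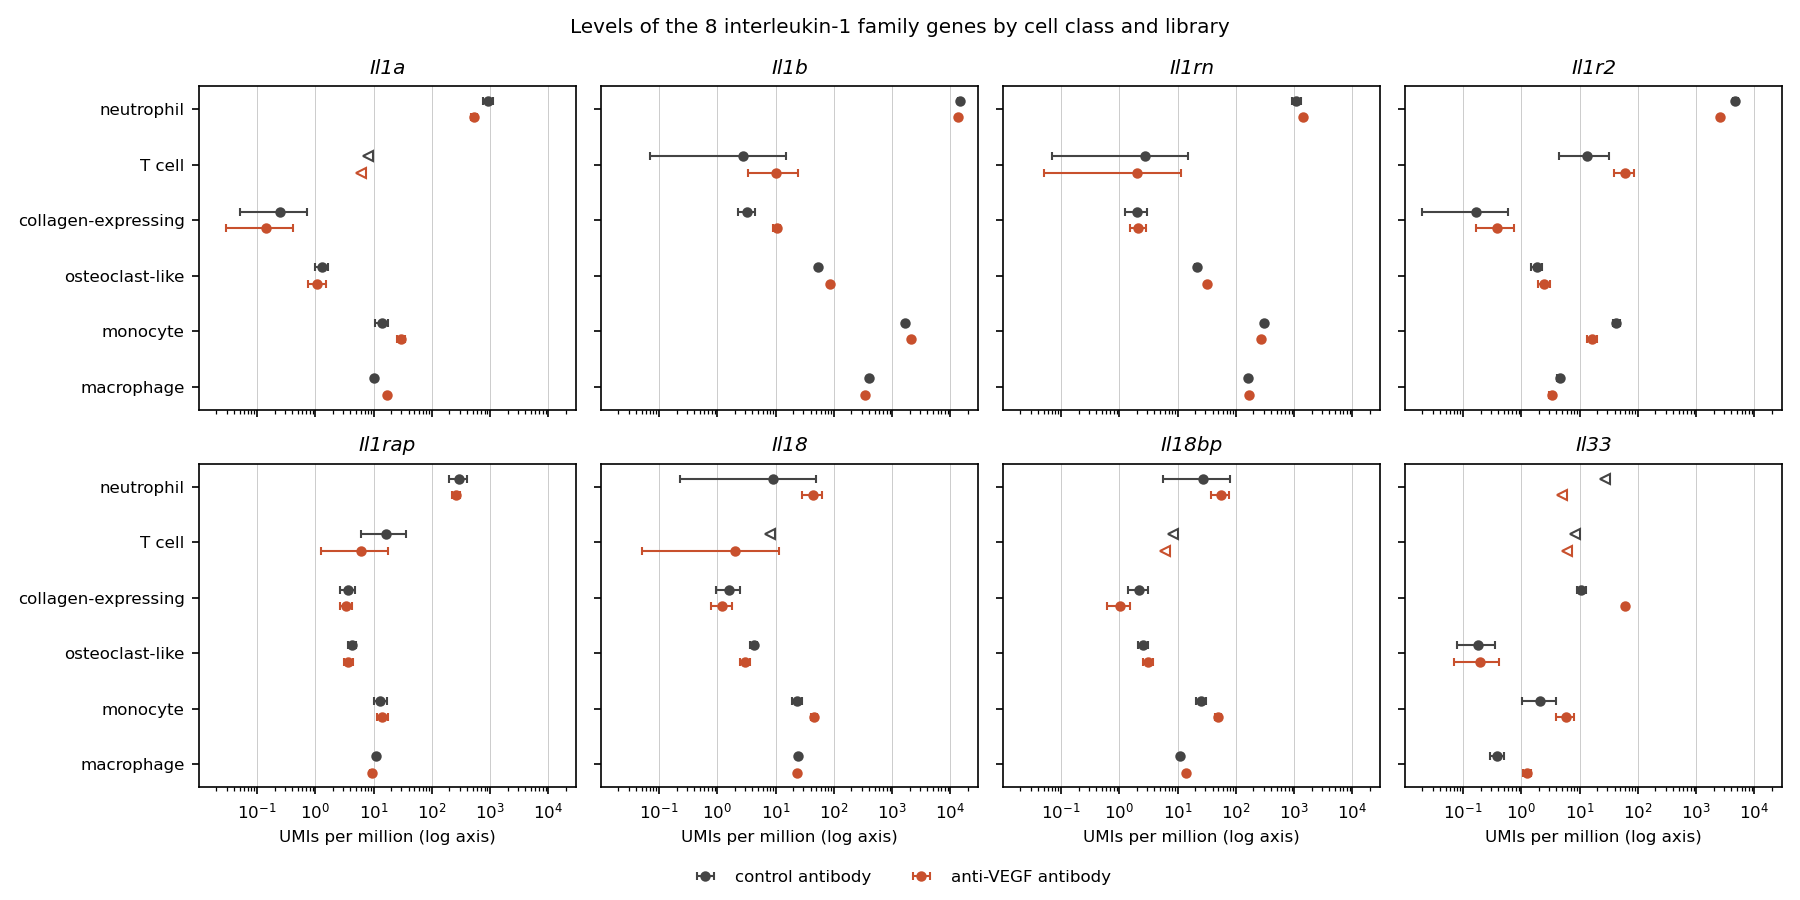
Level of each of the 8 genes (panels) in 6 cell classes (rows), in CPM on a log axis, with control in grey and anti-VEGF in orange. Bars are exact 95% Poisson intervals and open triangles mark the level of 3 counts where no UMI was found. Il1b, Il1a, Il1rn, Il1r2 and Il1rap are highest in neutrophils, and Il33 is highest in collagen-expressing cells.

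Although neutrophils were few, they held 2.26% of all Il1b UMIs of the control library and 10.8% of those of the anti-VEGF library, while macrophages held 70.6% and 51.0%. Over all cells of a library Il1b was at 316 and 363 CPM, a ratio of 1.15 (1.14 to 1.16), although within macrophages it was lower in the anti-VEGF library, with a ratio of 0.878 (0.866 to 0.890). Within neutrophils the ratio was 0.936 (0.887 to 0.988) and within monocytes 1.24 (1.21 to 1.28). Osteoclast-like cells, gated on genes of bone resorption and cell fusion, had 53.2 and 84.8 CPM of Il1b, a ratio of 1.60 (1.51 to 1.69). Of those UMIs, 67.2% and 62.9% sat in the 1% of cells with the most, 15 and 9 cells, so few cells set the level of the class.

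Il1b in collagen-expressing cells was higher in the anti-VEGF library through few cells. There were 39 UMIs in the control library and 218 in the anti-VEGF library, a ratio of 3.25 (2.30 to 4.70). The 34 anti-VEGF cells of this class with a Ptprc UMI held 159 of the 218, and the 12 such control cells held 1 of the 39. In the cells without Ptprc the level was 3.30 CPM (2.33 to 4.53) in 348 control cells and 3.06 CPM (2.33 to 3.95) in 516 anti-VEGF cells, within each other's counting intervals.

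Il1a, the ligand active without cleavage, was far rarer than Il1b and was lower in neutrophils but higher in monocytes and macrophages of the anti-VEGF library. Neutrophils had 907 CPM (739 to 1102) in the control library and 528 CPM (472 to 589) in the anti-VEGF library, a ratio of 0.582 (0.464 to 0.736). 1 control neutrophil held 29 of the 101 Il1a UMIs, and 3 anti-VEGF neutrophils held 140 of 318. When cells meeting several gates were put in their first class, the log2 ratio in neutrophils turned from -0.78 to 0.11. In monocytes the level was 13.7 and 29.8 CPM, a ratio of 2.17 (1.63 to 2.94), which turned to a log2 ratio of -0.71 with stricter gates that left 43 UMIs. In macrophages it was 10.2 and 17.0 CPM, a ratio of 1.66 (1.55 to 1.79). Most of these UMIs were in few macrophages: 66.2% of the control UMIs and 60.4% of the anti-VEGF UMIs were in the 1% of cells with the most. Il1a was detected in 5.66% and 8.85% of macrophages, or 1.17% and 1.94% after thinning to 2000 UMIs. It had 3 UMIs in each library in collagen-expressing cells and 0 in T cells.

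Il1rn, the receptor antagonist, was spread over the myeloid classes more evenly than Il1b. It stood at 1095 and 1441 CPM in neutrophils, 306 and 269 in monocytes, 159 and 167 in macrophages and 21.2 and 32.4 in osteoclast-like cells. Macrophages held 82.6% and 74.9% of all Il1rn UMIs. The ratio was 1.06 (1.04 to 1.08) in macrophages, 0.880 (0.819 to 0.946) in monocytes, 1.32 (1.09 to 1.60) in neutrophils and 1.53 (1.40 to 1.67) in osteoclast-like cells. In neutrophils there were 0.0762 Il1rn UMIs for each Il1b UMI in the control library and 0.107 in the anti-VEGF library. This proportion was 0.182 and 0.129 in monocytes, and 0.402 and 0.483 in macrophages. Thus it was higher in the anti-VEGF library in neutrophils and macrophages and lower in monocytes, in each case with intervals that do not overlap.

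Il1r2, the decoy receptor, was highest in neutrophils of the 6 classes compared and was lower per neutrophil in the anti-VEGF library. The level was 4714 CPM (4319 to 5135) in control neutrophils and 2555 CPM (2429 to 2686) in anti-VEGF neutrophils, a ratio of 0.542 (0.491 to 0.600), while the share of neutrophils with an Il1r2 UMI was 87.5% and 86.3%. Over the whole libraries the direction was the opposite, 8.42 and 15.1 CPM, a ratio of 1.80 (1.70 to 1.90). Neutrophils held 27.8% of the control library's Il1r2 UMIs and 49.3% of the anti-VEGF library's, and their share of cells was the larger in the anti-VEGF library. Monocytes showed the same direction as neutrophils, with 42.4 and 16.5 CPM and a ratio of 0.389 (0.303 to 0.498). In macrophages, at 4.52 and 3.31 CPM, the UMIs lay in 163 and 103 cells, 2.60% and 2.35% of the class, against 0.556% and 1.45% of the deeper collagen-expressing cells.

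In T cells Il1r2 had 5 UMIs in 2 control cells and 29 UMIs in 5 anti-VEGF cells, a ratio of 4.34 (1.66 to 14.4). Cells with Foxp3, the regulatory T cell factor, numbered 5 and 6 and held 0 and 2 of those UMIs. The ratio rests on 7 cells, and on the log2 scale it moved from 2.12 to 0.52 when mixed cells were put in their first class. Among the small dendritic classes, which are given without ratios, Flt3 dendritic cells without Ccr7 had 11 and 50 Il1r2 UMIs in 16 and 10 cells, and mature Ccr7 dendritic cells had 26 and 13 in 30 and 18 cells.

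Il1rap, the shared accessory chain, was past 1.5-fold in none of the 5 classes with enough UMIs. It was at 287 CPM (197 to 406) and 262 CPM (223 to 307) in neutrophils, at 13.1 and 14.1 CPM in monocytes and at 11.0 and 9.29 CPM in macrophages. Its ratio was 0.913 in neutrophils (0.621 to 1.38) and 1.08 in monocytes (0.770 to 1.53), with intervals that hold 1, and 0.847 (0.781 to 0.919) in macrophages. In osteoclast-like and collagen-expressing cells the levels were 4.29 and 3.69 CPM and 3.63 and 3.36 CPM.

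Il18 and its binding protein were both higher in monocytes of the anti-VEGF library by similar ratios. Il18 was at 23.6 and 45.0 CPM in monocytes, a ratio of 1.90 (1.52 to 2.40). Il18bp was at 25.3 and 49.2 CPM, a ratio of 1.94 (1.57 to 2.42). The size depended on the setting. The log2 ratio of Il18 ranged from 0.29, thinned to 1000 UMIs, to 1.80, thinned to 5000 UMIs. That of Il18bp ranged from 0.54, with stricter gates, to 1.43, thinned to 2000 UMIs. After thinning, Il18bp was detected in 4.30% of control and 11.9% of anti-VEGF monocytes. There were 1.07 Il18bp UMIs for each Il18 UMI in the control library and 1.09 in the anti-VEGF library. In the same cells the summed level of the 9 macrophage markers was 12993 and 9948 CPM, that of the 6 monocyte markers was 1973 and 2396 CPM, and the median depth was 19977 and 14358 UMIs. The part of these differences in the Il18 and Il18bp levels was not tested.

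Macrophages held 80.7% and 76.0% of all Il18 UMIs. Il18 was at 24.1 and 23.3 CPM there, a ratio of 0.967 (0.917 to 1.02), and Il18bp at 11.1 and 14.0 CPM, a ratio of 1.26 (1.17 to 1.36). In neutrophils Il18 had 1 and 26 UMIs and Il18bp 3 and 33, too few in the control library for a ratio. Collagen-expressing cells had 26 and 21 Il18bp UMIs, a ratio of 0.470 (0.251 to 0.868) at 2.15 and 1.01 CPM. Its log2 ratio moved from -1.09 to -0.01 when mixed cells were put in their first class.

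Il33 had the largest ratio of the 8 members in the 6 classes compared, in the collagen-expressing cells, where its level was also the highest of those classes. These had 129 UMIs in the control library and 1255 in the anti-VEGF library, 10.6 CPM (8.89 to 12.7) and 60.2 CPM (57.0 to 63.7), a ratio of 5.66 (4.72 to 6.84). An Il33 UMI was found in 46 of 360 control cells (12.8%) and in 237 of 550 anti-VEGF cells (43.1%). At an equal depth of 2000 UMIs per cell the shares were 2.02% (0.817% to 4.12%) and 8.58% (6.30% to 11.3%). The 4 control cells with the most held 48 of the 129 UMIs and the 6 anti-VEGF cells with the most 226 of the 1255. Cells with over 10 Il33 UMIs made up 0.278% of the class in the control library and 5.45% in the anti-VEGF library. Over the whole libraries 434 and 2483 Il33 UMIs were counted, a ratio of CPM of 6.21 (5.60 to 6.89), and the collagen-expressing cells, 3.33% and 6.74% of cells, held 29.7% and 50.5% of those UMIs. Mixed cells held 201 and 537 of them, and cells that met no gate 36 and 512, a ratio of 12.3 (8.73 to 17.7) in the latter, where 13.5% of all genes were called higher. No UMI was found in neutrophils, T cells, NK cells, mature dendritic cells or mast cells, where 3 counts would correspond to 26.9 and 4.98 CPM in neutrophils and 8.16 and 6.10 CPM in T cells. Osteoclast-like cells, with median depths of 29148.5 and 32967 UMIs near those of the collagen-expressing cells (30797 and 36162.5), held one in 0.401% and 0.559% of cells.

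**Figure D2:**
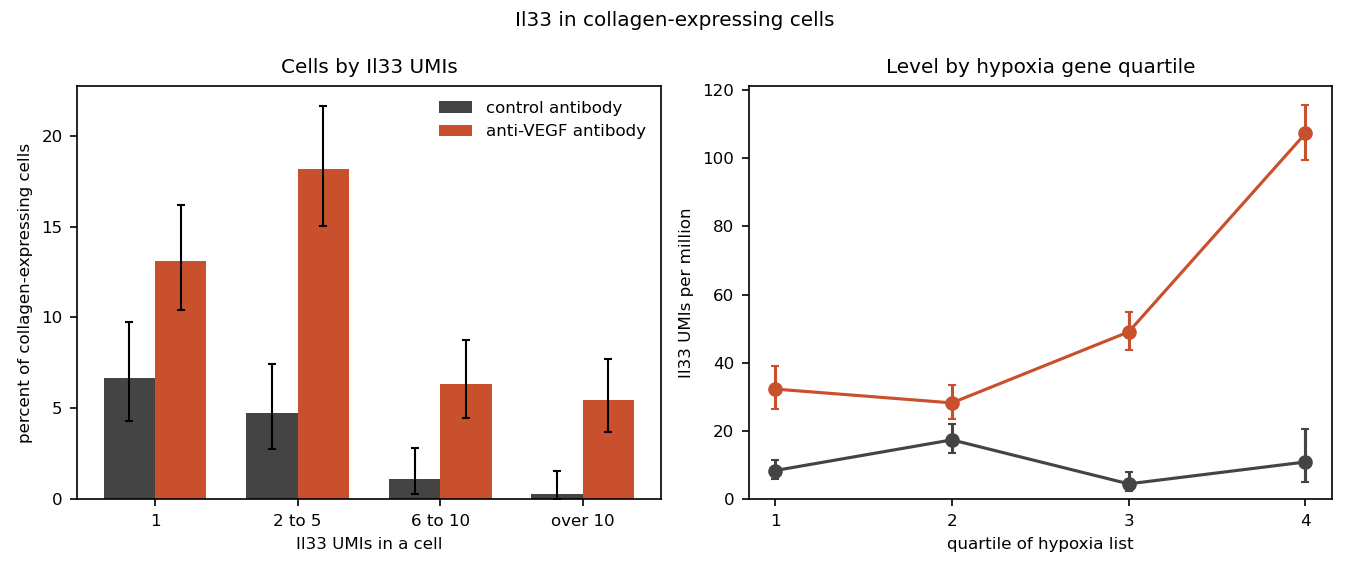
Left, percent of collagen-expressing cells (y axis) by the number of Il33 UMIs in the cell (x axis), with exact 95% binomial intervals and cells without Il33 not drawn. Right, Il33 in CPM by quartile of the hypoxia gene list, with exact 95% Poisson intervals. Cells with 2 to 5 UMIs make up 4.72% (control) and 18.2% (anti-VEGF), and the anti-VEGF level is highest in quartile 4 at 107 CPM.

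Il33 was higher in the anti-VEGF library in each of the subsets of this class given next. In cells without Ptprc the level was 11.0 CPM (9.19 to 13.1) in the control library and 60.3 CPM (56.9 to 63.9) in the anti-VEGF library. Msln, the mesothelial and mesothelioma surface protein, was detected in 261 of 360 control and 419 of 550 anti-VEGF cells, most of the class. Cells with it had 10.8 and 57.7 CPM of Il33, and the 99 and 131 cells without it had 9.27 and 80.9 CPM. Cells with Car9, a carbonic anhydrase induced by low oxygen, had 6.74 CPM (4.48 to 9.75) and 68.5 CPM (64.2 to 73.1), and those without it 12.7 CPM (10.3 to 15.4) and 45.4 CPM (40.7 to 50.5). Across quartiles of a list of 11 hypoxia genes, from low to high, Il33 was at 8.37, 17.4, 4.47 and 10.9 CPM in the control library and at 32.3, 28.2, 49.0 and 107 CPM in the anti-VEGF library. The ratios were 3.85, 1.62, 11.0 and 9.85, with the lowest interval at 1.20 to 2.21 in quartile 2 and only 33 control cells in quartile 4. Without the 1% of cells with the most Il33, which takes 2 control cells out of each of quartiles 1 and 2, the ratio was 6.18 (3.96 to 9.97) in quartile 1, and in quartile 2 the levels were 9.41 and 28.2 CPM with the ratio between 2.06 and 4.47.

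Macrophages had Il33 at 0.387 and 1.26 CPM, a ratio of 3.26 (2.34 to 4.61) from 49 and 139 UMIs, at a level far under that of the collagen-expressing cells. The UMIs were in 31 cells (0.494%) and 82 cells (1.87%). In macrophages the 6 collagen markers summed to 13.1 and 14.5 CPM, against 4232 and 3918 CPM in the collagen-expressing class, and none was detected in 50% of cells. The part of RNA from other cells in the macrophage value was not tested. In monocytes 1 control cell held all 10 Il33 UMIs, and 1 anti-VEGF cell held 26 of 34. Without the 5% of cells with the most UMIs the log2 ratio there turned from 1.44 to -0.68.

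A member was counted as higher or lower where its ratio reached 1.5 or 1/1.5 with at least 30 UMIs over both libraries and more than 3 in each. In neutrophils 5 members could be counted, of which 0 were higher and 2 lower (Il1a and Il1r2), where 16.0% and 17.4% of all genes were called higher and lower. In T cells the 1 countable member, Il1r2, was higher, against 11.2% of genes higher and 8.91% lower. In collagen-expressing cells 6 were countable, with 2 higher (Il1b and Il33) and 1 lower (Il18bp), against 4.89% and 5.35% of genes. Osteoclast-like cells had 7 countable members with 2 higher (Il1b and Il1rn) and 0 lower, against 3.35% and 4.01%. In monocytes all 8 could be counted, with 4 higher (Il1a, Il18, Il18bp and Il33) and 1 lower (Il1r2), against 6.49% and 6.99% of genes. In macrophages all 8 could be counted, with 2 higher (Il1a and Il33) and 0 lower, against 6.22% and 6.98%. The median log2 ratio of the members was 0.62 in monocytes and 0.02 in macrophages, beside -0.04 and -0.11 over all genes tested. In neutrophils, with 111373 and 602302 UMIs in all, the share of all genes called was the highest of the 6 classes.

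**Figure D3:**
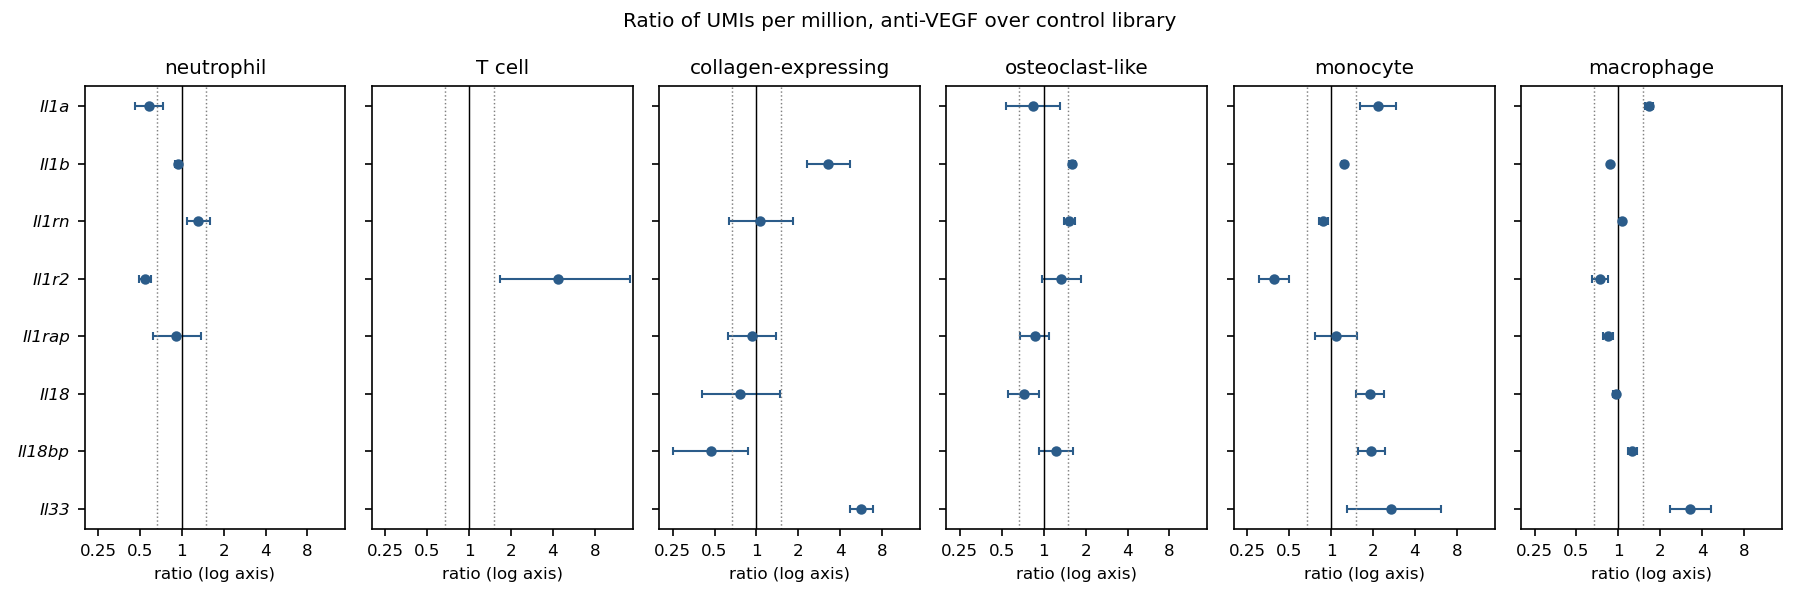
Ratio of CPM, anti-VEGF over control, for each gene in 6 classes on a log axis, with exact 95% intervals for counting error, a solid line at 1 and dotted lines at 1.5 and 1/1.5. Genes with too few UMIs in a class are not drawn. Il33 stands at 5.66 in collagen-expressing cells, and Il1r2 lies at 0.542 in neutrophils and 0.389 in monocytes.

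Within macrophages the Il1b difference between the libraries grew with the level of the hypoxia genes. Cells of both libraries were ranked by the summed UMIs of the 11 hypoxia genes after thinning and divided at common quartiles, which held 2296, 1371, 1109 and 432 control cells and 549, 662, 1217 and 1745 anti-VEGF cells. The anti-VEGF library thus had its largest group in quartile 4 and the control library in quartile 1. The median list sum was the same in both libraries in quartiles 1 to 3. In quartile 4 it was 16 UMIs in control and 19 in anti-VEGF cells, so that quartile compares cells of unlike level. From low to high, Il1b was at 256, 408, 583 and 554 CPM in the control library and at 251, 364, 392 and 332 CPM in the anti-VEGF library. The ratio went from 0.978 (0.942 to 1.02) in quartile 1 to 0.600 (0.582 to 0.620) in quartile 4. Without the 1% of macrophages with the most Il1b, an alternative chosen after seeing the data, the ratio was 0.923 in quartile 1, 0.806 in quartile 3 and 0.649 (0.626 to 0.673) in quartile 4.

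The other members did not share one pattern over the hypoxia quartiles. Il1rn was higher with each quartile in the control library, from 130 to 230 CPM, and its ratio was 1.11 (1.06 to 1.17) in quartile 1 and 0.838 (0.800 to 0.878) in quartile 4. Il1r2 was lower in the anti-VEGF library in quartile 3, at 8.93 and 4.51 CPM, and in quartile 4, at 6.12 and 2.93 CPM. These values rest on few cells: without the 1% of macrophages with the most Il1r2 they were 1.43 and 0.829 CPM in quartile 3, a ratio of 0.579 (0.342 to 0.968), and 0.812 and 0.564 CPM in quartile 4, a ratio of 0.695 (0.302 to 1.79) from 8 and 24 UMIs. Il18bp was at 9.02 and 17.2 CPM in quartile 2, a ratio of 1.90, and at 10.7 and 10.9 CPM in quartile 4. Il1rap was at 11.2 and 7.44 CPM in quartile 4, a ratio of 0.662 (0.532 to 0.829). Il18 lay between 20.2 and 29.4 CPM throughout. Il1a had ratios of 1.80, 2.27, 1.08 and 0.766 from quartile 1 to 4, but each of them rests on few cells. Leaving out the 1% of macrophages with the most Il1a takes 9 control and 14 anti-VEGF cells out of quartile 4. Without those 1% the ratio was 1.43 (1.03 to 1.95) in quartile 1 and 1.74 (1.32 to 2.28) in quartile 2. It was 1.76 (1.40 to 2.22) in quartile 3 and 1.40 (1.04 to 1.91) in quartile 4.

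**Figure D4:**
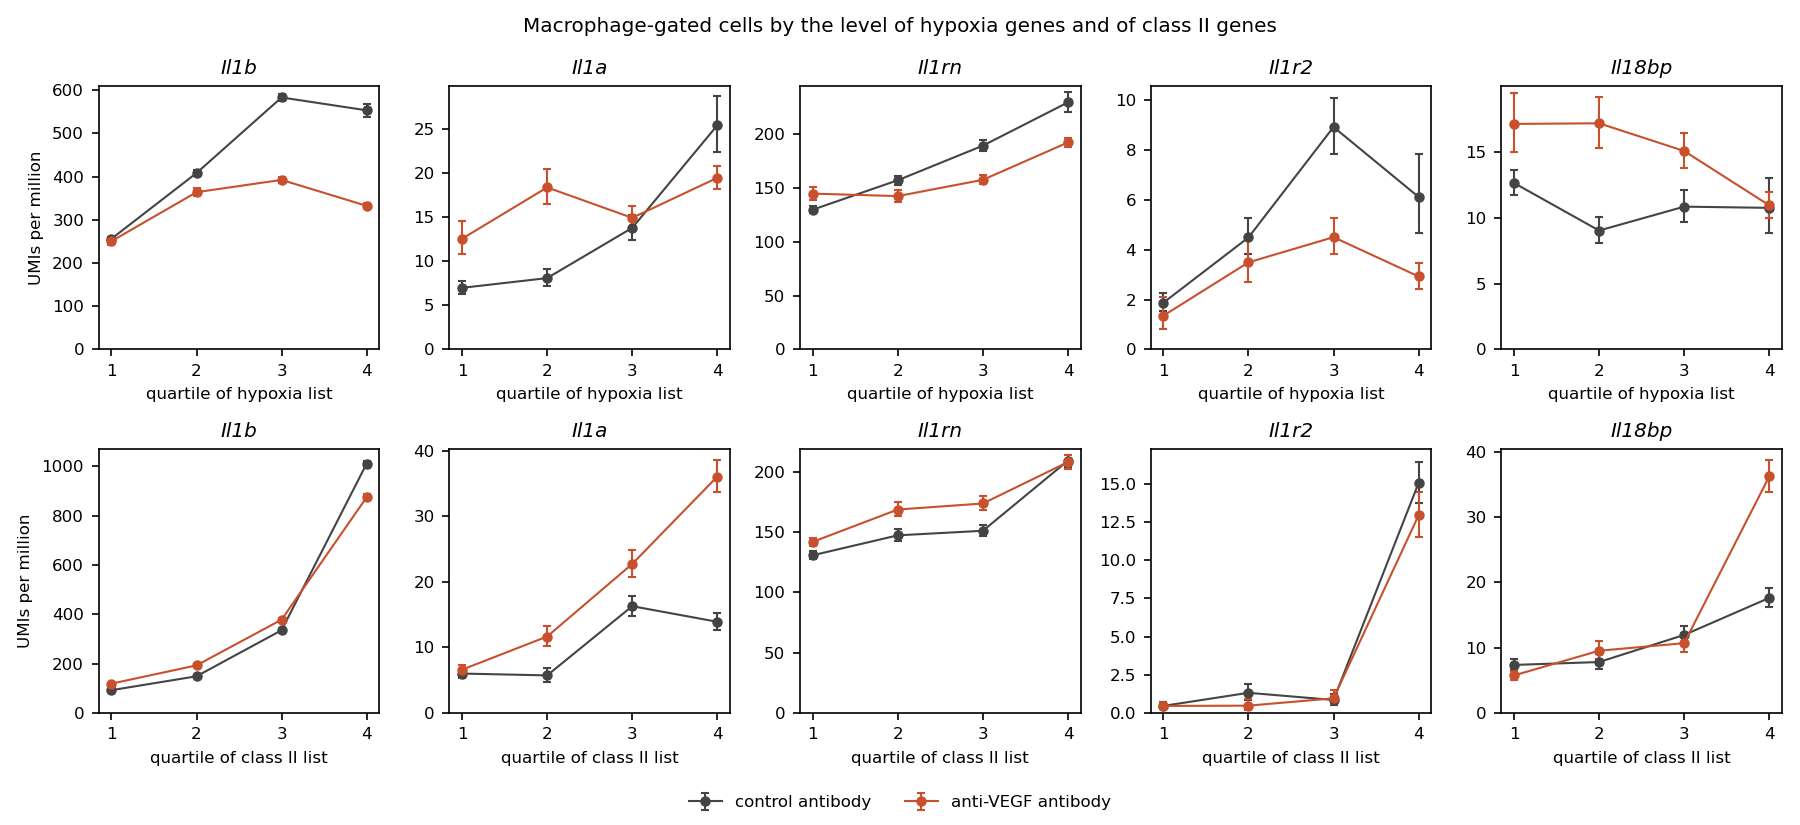
CPM of 5 genes in macrophage-gated cells by quartile of the summed hypoxia genes (top) and of the summed class II genes (bottom), with exact 95% Poisson intervals, control in grey and anti-VEGF in orange. Il1b in hypoxia quartile 4 is at 554 and 332 CPM, and Il1b and Il1r2 are highest in class II quartile 4 in both libraries.

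Macrophages with more MHC class II, the molecules that present antigen to helper T cells, had more Il1b in both libraries. Over quartiles of 6 class II genes, Il1b was at 91.8, 148, 335 and 1011 CPM in the control library and 118, 192, 378 and 874 CPM in the anti-VEGF library. Its ratio was 1.29 and 1.30 in the 2 lower quartiles and 1.13 (1.09 to 1.16) in quartile 3. It was 0.865 (0.850 to 0.880) in the highest. From low to high, these quartiles held 1743, 905, 1152 and 1408 control cells and 1789, 765, 726 and 893 anti-VEGF cells. Il1r2 was near 0 in quartile 1, at 0.454 and 0.452 CPM, and at 15.1 and 12.9 CPM in quartile 4. Without the 1% of macrophages with the most Il1r2, which takes 59 and 36 cells out of quartile 4, the levels there were 2.47 and 1.66 CPM. Il1a in quartile 4 was at 13.9 and 36.1 CPM, a ratio of 2.60 (2.31 to 2.91), and 2.52 (2.09 to 3.05) without the 1% of cells with the most. Il18bp in quartile 4 was at 17.6 and 36.2 CPM, a ratio of 2.06 (1.85 to 2.29), while in quartile 1 it was at 7.34 and 5.73 CPM. Over these quartiles and both libraries Il18 ranged from 22.3 to 26.2 CPM and Il1rap from 8.06 to 12.6 CPM. Quartiles are ranges of a score and not cell types, and macrophages with fewer than 2000 UMIs, 17.0% of those in the control library and 4.79% of the others, are not in them.

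In thinned cells Il1b was found together with its antagonists in most neutrophils but in few macrophages. In neutrophils thinned to 2000 UMIs, Il1b and Il1r2 were detected together in 91.2% of 34 control cells and 86.0% of 143 anti-VEGF cells, and Il1b with Il1rn in 76.5% and 74.8%. Since Il1b was in 33 of the 34 and 141 of the 143, these joint shares follow the shares of Il1r2 and Il1rn alone. Il1b was detected with Il1a in 14 of the 34 (24.6% to 59.3%) and 30 of the 143 (14.6% to 28.6%). Macrophages thinned alike held Il1b with Il1rn in 6.03% and 6.06% of cells, and Il1b with Il1r2 in 0.384% and 0.288%. Il1rn was found in 32.4% of the control macrophages with Il1b and 17.7% of those without it, and in 36.9% and 20.4% in the anti-VEGF library. Il1a was in 3.72% of control macrophages with Il1b and 0.590% of those without, and in 6.71% and 1.00% in the anti-VEGF library.

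The receptor genes were mostly low in the myeloid classes that held the ligands, whereas the collagen-expressing class held both Il33 and its receptor. Whether the same cells held both was not examined. Il1r1, the signalling receptor of Il1a and Il1b, was at 28.7 and 29.5 CPM in collagen-expressing cells, at 0.245 and 0.363 CPM in macrophages, and without a UMI in neutrophils. Il1rl1, the receptor of Il33, was at 653 and 607 CPM in 12 and 5 mast cells or basophils and at 59.0 and 48.4 CPM over all collagen-expressing cells. An Il33 UMI was found in 12.8% and 43.1% of the latter. Il18r1, the Il18 receptor chain that binds the ligand, was at 147 and 325 CPM in 26 and 9 NK cells, 87.0 and 87.5 CPM in T cells, and 0.142 and 0.118 CPM in macrophages. Il18rap, its second chain, was also in neutrophils, at 117 and 146 CPM. Of the 8 receptor genes, 6 could be counted in macrophages, with 2 higher (Il1rl1 at 1.88 and Il18rap at 1.52) and 0 lower. Of all genes there, 6.22% were called higher and 6.98% lower. In collagen-expressing cells 5 could be counted, with 0 higher and 0 lower, against 4.89% and 5.35% of all genes. In osteoclast-like cells 4 could be counted, with 0 higher and 2 lower, against 3.35% and 4.01% of all genes. The lower receptor genes were Il1rl1 at 0.376 (0.181 to 0.723) and Il18rap at 0.470 (0.195 to 1.03), the latter from 27 and 9 UMIs.

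Of the processing genes, Nlrp3, the sensor of the inflammasome that activates caspase-1, was highest where Il1b was, with 1176 and 880.0 CPM in neutrophils, 168 and 187 in monocytes and 65.8 and 85.0 in macrophages, but was also at 34.8 and 39.2 CPM in collagen-expressing cells. Casp1, which cuts the Il1b precursor, had 1 and 8 UMIs in neutrophils, 8.98 and 13.3 CPM, against 44.2 and 47.9 CPM in macrophages. Of 14 processing genes, 12 could be counted in macrophages, with 0 higher and 2 lower, against 6.22% and 6.98% of all genes. The lower processing genes were Nlrc4 at 0.656 and Prtn3 at 0.635 (0.354 to 1.11), the latter from 38 and 21 UMIs. In monocytes 12 could be counted, with 0 called in either direction, against 6.49% of all genes higher and 6.99% lower. In neutrophils 4 could be counted, and Gsdmd (0.462, interval 0.214 to 1.08) and Mefv (0.514) were lower, where 17.4% of all genes were. All 12 signalling genes were counted in macrophages and monocytes, and none was called. In T cells 2 of 4 were higher and 0 lower, against 11.2% and 8.91% of all genes. These were Nfkbia at 1.78 (1.55 to 2.05) and Irak1 at 1.54 (0.840 to 2.93), the latter from 17 and 35 UMIs. In collagen-expressing cells 1 of 11 was higher, Irak2, a kinase of the receptor complex, at 2.97 and 4.46 CPM (interval of the ratio 1.01 to 2.27). Of all genes there, 4.89% were called higher.

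Of 11 genes that interleukin-1 is known to induce, 1 was higher and 0 lower in macrophages, against 6.22% and 6.98% of all genes. Their median log2 ratio was -0.01 beside -0.11 over all genes tested. The higher gene was Cxcl1, a chemokine for neutrophils. It was at 165 and 287 CPM, a ratio of 1.74 (1.71 to 1.77). In monocytes 2 of 10 were higher (Cxcl1 and Tnfaip3), in osteoclast-like cells 1 of 10 (Cxcl1) and in T cells 2 of 7 (Ccl3 and Ccl4), with 0 lower in each. The share of all genes called higher was 6.49%, 3.35% and 11.2% in these classes. Cxcl1 had a ratio of 1.80 (1.68 to 1.92) in monocytes, 1.52 (1.40 to 1.65) in osteoclast-like cells and 4.97 (2.48 to 11.7) in neutrophils. In the collagen-expressing cells, the class with Il1r1, 0 of the 11 were higher and 2 were lower, against 4.89% and 5.35% of all genes. Cxcl1 was at 889.5 and 760.1 CPM there. The lower genes were Ptgs2, which makes prostaglandins, with 0.649 (0.609 to 0.691), and Cxcl2, another such chemokine, with 0.635 (0.605 to 0.667). In neutrophils 4 of 10 were higher (Cxcl1, Tnfaip3, Ccl4 and Sod2), where 16.0% of all genes were. Of the other ligands only Il1f9, which encodes interleukin-36 gamma, could be counted, in neutrophils, at 233 and 385 CPM with a ratio of 1.65 (1.10 to 2.58).

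Over the 9 sums of a class and library with at least 50 cells, the genes whose log2(CPM + 1) was most like Il1b were Itpkb (r = 0.996), Pde4b (0.992), Rab11fip1 (0.991) and Fgl2 (0.991). Those most like Il1rn were Cd14 (0.998), Ebi3, Lilr4b and Slc15a3 (0.997 each), and those most like Il1r2 were Fam110a (0.995), Ltb (0.992), Tfip11 and Vcpip1 (0.991 each). For Il33 the closest was Jmjd6 (0.981), followed by Fam102b (0.956), Cxcl5 (0.954) and Tlk2 (0.953). With 9 points that share their libraries, and with 1 neutrophil sum that stands far from the rest, these values are a description.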

How the data were processed

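The authors deposited matrices of counts, whole UMIs for every gene in every cell, without normalisation. Cell Ranger 3.0.2 and mm10 are named per the submitters' processing notes, and 3.1.0 is the software version written per the file headers. The sources used here do not state whether counting used the strand. Il1b, Il1a, Il1r2, Il1rap, Il18 and Il18bp overlap genes on the opposite strand in GENCODE M21 and Il1r2 also Gm37347 on its own strand, so their reads may be shared.

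The libraries held 11687 and 8825 barcodes with 233687412 and 213948867 UMIs (medians 17293 and 21781). Barcodes under 300 genes or 500 UMIs, or with over 10% of UMIs from mitochondrial genes, were dropped, and 10805 and 8159 cells remained. Each cell was gated on marker lists by the number of markers detected and their UMIs per 10000 (for example 4 of 8 and 10 for neutrophils, 5 of 9 and 10 for macrophages). Gate thresholds were set after the data were seen. Cells in more than 1 lineage, or in a lineage other than osteoclast-like with at least 4 of 7 macrophage markers, were kept apart as mixed (463 and 401), and 1842 and 1342 met no gate. No doublet caller was run, so doublets within a class remain.

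UMIs were summed per class and library, with 95% intervals throughout (exact Poisson for a level, exact conditional binomial for a ratio, Clopper-Pearson for a share). Where no UMI was found the level of 3 counts is given as the limit, which is lower than the upper bound of the Poisson interval. No ratio is given with 3 UMIs or fewer in either library. Alternatives were a stricter cell filter, stricter gates, mixed cells put in their first lineage, median-of-ratios scaling, equal weight per cell, thinning to other depths, and leaving out the cells with the most UMIs. The ratio interval and the 1.5-fold call were tested on simulated sums of the macrophage class, drawn as independent Poisson counts. Such draws do not model UMIs that gather in few cells. The gates, thinning, quartiles and detection of genes in the same cell were not tested on simulated counts. All 8 members are named. Pathway genes come from 5 lists, with the 2 highest or 2 lowest ratios of a list named as examples beside genes named for their level or role after their values were seen. The 4 most similar genes are given for 4 members. The members and lists were chosen with earlier results of these data known. Of 54 pathway symbols 4, the newer names of the interleukin-36 genes, were not found and their older symbols were used. All 8 members matched the RefSeq promoter table. Python 3.11.15, numpy 2.4.6, scipy 1.17.1 and pandas 2.3.3 were used.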

Additional observations from a re-analysis of the deposited data

Results flagged for a closer look

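For 3 members the libraries differed in opposite directions between classes, each by at least 1.5-fold, and none of these differences between classes was tested. Il1a had a ratio (anti-VEGF over control) of 2.17 in monocytes and 1.66 in macrophages but 0.582 in neutrophils. Il1r2 was at 4.34 in T cells, from 7 cells, but at 0.542 in neutrophils and 0.389 in monocytes. Il18bp was at 1.94 in monocytes and at 0.470 in collagen-expressing cells, the latter from 26 and 21 UMIs. These directions depend on the gates. With mixed cells put in their first class, the log2 ratio was 0.11 for Il1a in neutrophils and 0.52 for Il1r2 in T cells. That of Il18bp in collagen-expressing cells was then -0.01. With stricter gates the log2 ratio of Il1a in monocytes was -0.71.

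The cells that met no gate are not among the 6 classes compared. In them 6 of the 8 members were higher in the anti-VEGF library by at least 1.5-fold, where 13.5% of all genes were. The ratio was 4.65 for Il1a, 2.07 for Il1b, 1.59 for Il1rn, 4.87 for Il1r2, 1.62 for Il18bp (0.977 to 2.75) and 12.3 for Il33 (8.73 to 17.7). These cells were shallow, with a median of 1393.5 UMIs in the control library and 3361 in the anti-VEGF library. Cells with at least 2 collagen markers held 80.6% of their Il33 UMIs in the control library and 53.3% in the anti-VEGF library. Cells with at least 2 neutrophil markers held 14.6% and 22.2% of their Il1b UMIs, and 8 of 40 and 35 of 226 of their Il1r2 UMIs.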

How the results depend on the processing

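No paired analysis was possible because each group is 1 library, and no replicate could be left out. Over 35 pairs of class and member, 11 were higher and 4 lower by at least 1.5-fold. With equal weight per cell 9 were lower. Thinned to 2000 UMIs, 6 were higher, and to 5000 UMIs, 6 were higher and 2 lower. Thinned to 1000 UMIs, a setting added after the data were seen, 2 were higher. Without the 1% of cells with the most UMIs of the member 7 were higher, and at a fold of 2, 6 were higher and 2 lower. Thinning leaves fewer pairs with enough UMIs (20, 20 and 17). The other counts stayed within 1.5 times.

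Of the 15 called ratios, 12 kept their sign in every setting that gave a value, and 2 stayed past 1.5-fold in each such setting. These 2 were Il33 in collagen-expressing cells (log2 1.92 to 2.88, 10 settings) and in macrophages (1.00 to 2.38, 8 settings). The 63 control macrophages with the most Il33 held all 49 of its UMIs there, so leaving out the top 1% of cells gave no ratio in macrophages. The log2 ratio of Il1a in neutrophils turned to 0.11 when mixed cells were put in the first lineage, that of Il1a in monocytes to -0.71 with stricter gates, which left 43 UMIs, and that of Il33 in monocytes to -0.68 without the 5% of cells with the most UMIs, which left 18 UMIs. The cause was not tested. Il1b in collagen-expressing cells was 0.11 after thinning to 2000 UMIs. Il1b in neutrophils, not called, ranged from -0.13 to 0.80. Scaling to the median gene moves macrophage ratios by 0.11 (log2) and those of Il18 there from -0.05 to 0.06. Of 88 shares of cells with a UMI that could be thinned to 5000 UMIs, 42 stayed within the interval, as did 37 of 96 unthinned; no control neutrophil was that deep. Values in control neutrophils rest on 48 cells and 111373 UMIs.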
